A study of Mus musculus with 6 samples.

Results

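The rod phototransduction cascade was examined in adult retinas of wildtype (WT) mice and of Trim9 knockout (KO) littermates, across 9 genes: the transducin subunits Gnat1, Gnb1 and Gngt1, the phosphodiesterase subunits Pde6a, Pde6b and Pde6g, the channel subunits Cnga1 and Cngb1, and the rod arrestin gene Sag. These genes were chosen by symbol. Every probe set whose annotation names 1 of them alone was taken, which gave 15 of the 34945 probe sets that name 1 gene, for 9 of 18193 genes. A probe set is a group of short oligonucleotides that together read 1 transcript. Where a gene had several, it was read by the brightest on average, and the others were used to see whether they changed alike.

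In a rod, light absorbed by the visual pigment activates the G protein transducin, whose alpha subunit takes the inhibitory gamma subunits away from phosphodiesterase 6. The freed enzyme breaks down cyclic GMP, the cyclic nucleotide gated channels of the outer segment close, and the cell hyperpolarizes. Arrestin then binds the phosphorylated pigment and stops the signal.

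Retinal RNA of 3 WT and 3 Trim9 KO samples was measured on 6 Affymetrix arrays of the mouse genome, with no sample on more than 1 array. The KO mice lack exon 1 of Trim9, a ubiquitin ligase gene, after excision by Cre in a cross with CMV-cre mice, whose promoter is broadly active, so the deletion is not limited to rods or to the retina. The controls are WT littermates. The labels call the tissue adult retina, although 1 note on treatment mentions embryos, and they give no age in days, no sex and no strain. Nothing states whether the samples of a genotype came from separate mice, so p-values measure only the spread between these samples. The values are linear intensities, taken here as log2(intensity + 16), and a change is the mean log2 value in Trim9 KO minus that in WT. Because the RNA is from whole retina, fewer rods and less RNA per rod cannot be told apart in these values. On sections of adult retina, the paper reported no major change in rods by Nrl in situ hybridization. It also reported no significant change by rhodopsin staining.

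Trim9 itself, read by its brightest probe set, had intensities of 4226, 1767 and 1667 in WT replicates 1, 2 and 3 and of 1498, 496.7 and 367.2 in Trim9 KO replicates 1, 2 and 3. In this probe set the KO arrays were all lower than the WT arrays (log2 change -1.81, standard error [SE] 0.99, two-sided exact permutation p = 0.1, the lowest value possible with 3 arrays a genotype), although nothing used here places this probe set inside or outside exon 1. The other 3 Trim9 probe sets changed by -2.48 (no overlap), -0.77 and -0.58 (both overlapping). The first of these (1434595_at) read 2583, 1526 and 2472 in WT and 35.85, 1414 and 758.6 in Trim9 KO. Its KO replicate 2 was thus close to WT replicate 2, and KO replicate 1 was far below the rest. The array of Trim9 KO replicate 1 resembled the others least, with a Pearson's r across probe sets of 0.47 to 0.52 against 0.66 to 0.89 among the other 5. For Actb, the array carries control probe sets at the 3' and 5' ends of the transcript, whose difference grows when RNA is degraded or labelled over a short stretch. This log2 difference was 4.30, 3.28 and 1.78 in WT replicates 1, 2 and 3 and 1.49, 6.50 and 6.42 in Trim9 KO replicates 1, 2 and 3. It was thus lowest in Trim9 KO replicate 1, WT replicate 3 and WT replicate 2. The same difference for Gapdh was 8.10, 6.28 and -0.14 in WT and 6.91, 7.17 and 7.29 in Trim9 KO. Its 3 lowest arrays were the same, but WT replicate 3 alone was far below the rest, and Trim9 KO replicate 1 was close to the other KO arrays.

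Promoter sequences from RefSeq (GRCm38.p6) were held for 6 of the 9 genes, those other than Gnat1, Pde6a and Pde6g. They were searched on both strands, from 250 bases before the start of the gene to 50 after it, for the core TAATCC bound by the photoreceptor transcription factor CRX and for TGCTGA, part of the site bound by the rod factor NRL. The windows below are shown because these factors are known to drive rod genes, and the capitals mark the match, as TAATCC or as its opposite strand GGATTA, or as TGCTGA.
Gngt1, chr6:3993952-3993981, plus strand: tcatattaggggGGATTAtgaagaagcttt
Pde6b, chr5:108388343-108388372, plus strand: taatcatcactaagaaagacttTGCTGAca
Cnga1, chr5:72642963-72642992, minus strand: agtgtctcatttTAATCCtaatgataaact
Cngb1, chr8:95306626-95306655, minus strand: ttctgcacatgcTAATCCtttgcacccggc
Cngb1, chr8:95306593-95306622, minus strand: tctagtgccaatTAATCCtggctgggtctg
Sag, chr1:87803581-87803610, plus strand: taaagaggtttaGGATTAaaaaaaaaaaaa
Sag, chr1:87803481-87803510, plus strand: acaccctaatgcTGCTGAgcttaatcaggc
The CRX core was found in 4 of the 6 promoters, those of Gngt1, Cnga1, Cngb1 and Sag, and in 7.06% of 32851 promoters of the same length. The NRL element was found in 2 of the 6, those of Pde6b and Sag, and in 19.5% of all. Neither was found in the promoter of Gnb1, which encodes a G protein beta subunit that many cell types use. The matches are descriptions of these windows and not evidence of binding.

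To determine whether the cascade as a whole differed between the genotypes, the 9 genes were first read as a group. No probe set of the cascade passed the test: limma called 0 of 15 at an adjusted p under 0.05 (0% of all 45037 probe sets were called) and 0 of 15 at an unadjusted p under 0.05 (2.88% of all probe sets). The adjusted p was 0.999 for each of the 15. It was also 0.999 for each Trim9 probe set, so this test did not call the targeted gene either. The mean was lower in Trim9 KO in 8 of 9 genes, where 44.8% of all genes were lower, a share that becomes 57.2% when the array medians are made equal. The median log2 change of the 9 genes was -0.66, against 0.14 for all genes. In no gene were the 3 KO values lower than each WT value (2.89% of all genes), and in none were they higher than each (5.35%). The 95% interval of the change held 0 in 9 of 9 genes.

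The spread between arrays of 1 genotype was large beside these changes. Over the 6 arrays a gene ranged over 2.34 to 4.33 on the log2 scale, and the range among the 3 WT arrays alone exceeded the size of the change in 8 of 9 genes, with Sag as the exception. The SE was 0.96 to 1.30, and a change as large as the median was below the SE of every gene. All 9 genes were above the median of their array on all 6 arrays, and the lowest percentile of any of them was 74.7. The sign of the median depended on 1 covariate, chosen after the data were seen. With the Actb 3' to 5' difference of each array in the fit, the median was 0.050 and 4 of 9 genes were lower. No other control was fitted, and the controls did not rank the arrays alike. WT replicate 1 was below Trim9 KO replicates 2 and 3 by Actb (4.30 against 6.50 and 6.42). By Gapdh it was above them (8.10 against 7.17 and 7.29).

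**Figure D1:**
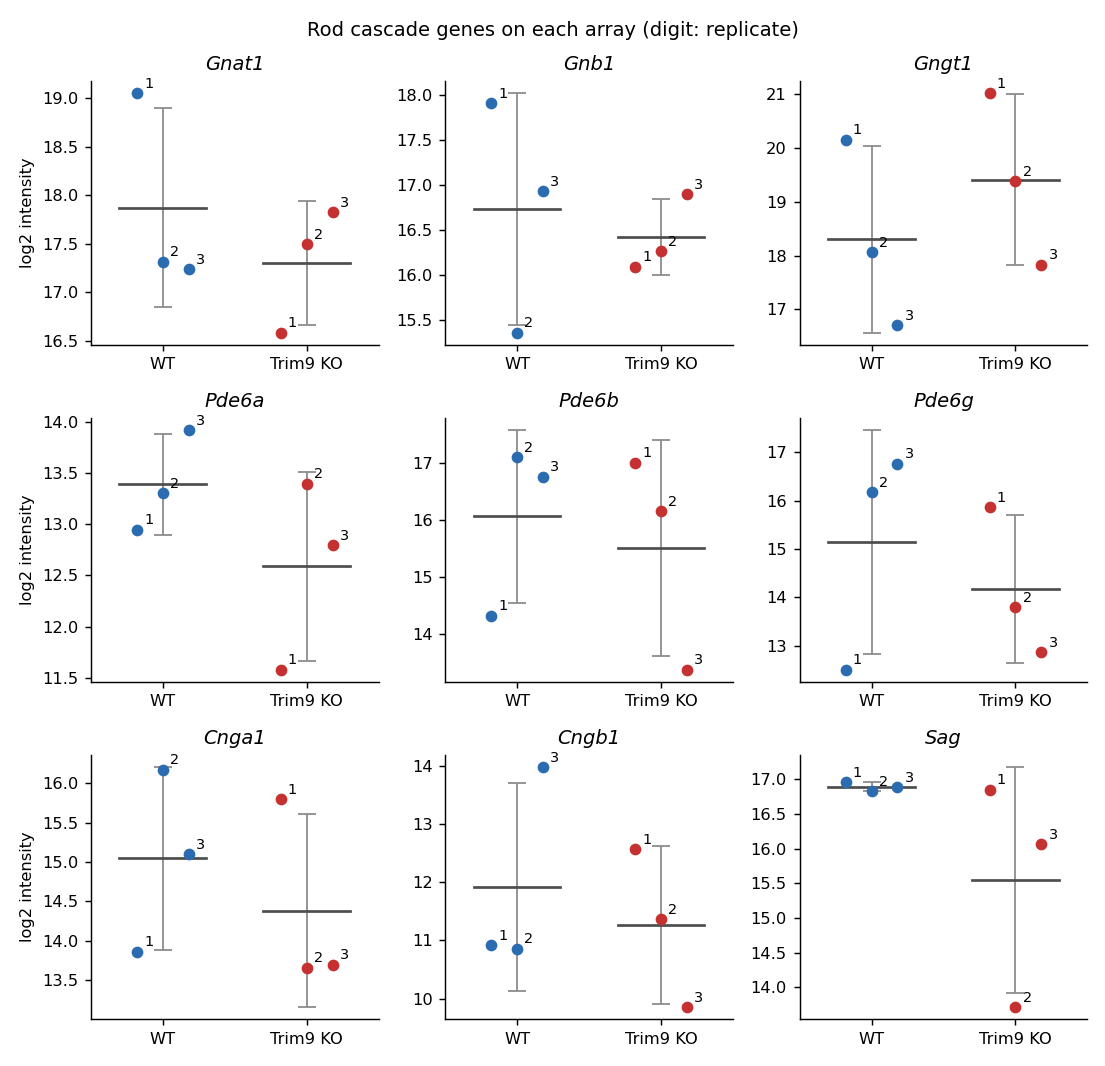
Log2 intensity (y axis, own scale in each panel) of the 9 rod cascade genes on each array, by genotype (x axis), with points for single arrays, digits for the replicate, and bars for mean ± SD (n = 3). The genotypes overlap in every panel, and the 3 WT points of Sag lie within 0.13 of each other.

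Transducin was read by 8 probe sets. Gnat1 encodes the alpha subunit of rod transducin, which carries the signal to the phosphodiesterase. Its 1 probe set (1460212_at) gave intensities of 543792, 163292 and 154771 in WT replicates 1, 2 and 3, and of 98308, 184874 and 232297 in the KO replicates. WT replicate 1 was the highest array and the KO arrays surrounded the other WT arrays. The log2 value was 17.87 ± 1.03 in WT and 17.30 ± 0.64 in Trim9 KO (mean ± SD, n = 3 each), a change of -0.57 (SE 0.98, 95% interval -2.72 to 1.58, exact permutation p = 0.6). It was 0.024 without WT replicate 1, so that array gave the change its sign.

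Gnb1 encodes the beta subunit of rod transducin and serves other G proteins too, so its signal in whole retina is not that of rods alone. Its brightest probe set (1454696_at) read 246607, 42185 and 125226 in WT and 70077, 79081 and 122142 in Trim9 KO. The 3 KO arrays lay within the range of the WT arrays, which spanned 5.84-fold. On the log2 scale WT averaged 16.74 ± 1.28 and Trim9 KO 16.42 ± 0.42, a change of -0.31 (SE 1.00, 95% interval -2.52 to 1.89, exact permutation p = 0.7), and again the sign rested on WT replicate 1, without which the change was 0.27. A second probe set (1417432_a_at) gave 254328, 71413 and 65232 in WT and 15271, 150665 and 93334 in Trim9 KO. Its change was -0.82 (SE 1.14), with the genotypes overlapping, and its r with the brightest over the 6 arrays was 0.54.

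The remaining Gnb1 probe set (1425908_at) went the other way. It read 113.5, 46.44 and 108.6 in WT and 167.5, 202.6 and 162.8 in Trim9 KO. Every KO array exceeded every WT array (log2 change 0.94, SE 0.91, exact permutation p = 0.1, the smallest possible), the only such case among the 15 probe sets, where 4.92% of all probe sets naming 1 gene lay above and 3.06% below. This probe set was under the median of its array on all 6 arrays, and its r with the other Gnb1 probe sets was 0.33 and -0.05. The probe sets of Gnb1 therefore gave no common direction.

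Gngt1, the gamma subunit that anchors rod transducin to the membrane, was the 1 gene with a higher mean in Trim9 KO. Its brightest probe set (1425167_a_at) gave 1170090, 274334 and 106531 in WT and 2137130, 684142 and 233722 in Trim9 KO. Each genotype spread widely, by 11.0-fold in WT and 9.14-fold in Trim9 KO, and Trim9 KO replicate 1 was the highest array. The log2 value was 18.31 ± 1.74 in WT and 19.42 ± 1.60 in Trim9 KO, a change of 1.11 (SE 1.20, 95% interval -1.54 to 3.75, exact permutation p = 0.5) that became -0.041 after quantile normalization. It was 0.30 without Trim9 KO replicate 1 or without WT replicate 3, 2.03 without WT replicate 1, and 1.90 when Trim9 KO replicate 3 was dropped.

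The other 3 Gngt1 probe sets had smaller changes. They were 0.45 (SE 1.08) for 1451633_a_at, 0.14 (SE 1.12) for 1425219_x_at and 0.01 (SE 0.92) for 1425168_at. In none did the genotypes separate, with exact permutation p-values of 0.7, 1 and 1. The 4 probe sets correlated with each other at r of 0.26 to 0.89 over the 6 arrays. They did not peak on the same array. The highest array was Trim9 KO replicate 1 for 1425167_a_at, WT replicate 1 for 1451633_a_at and 1425219_x_at, and WT replicate 2 for 1425168_at, which read 1018, 1501 and 535.7 in WT and 907.9, 882.1 and 1056 in Trim9 KO.

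Phosphodiesterase 6 was read by 4 probe sets, all with a lower mean in Trim9 KO. Pde6a and Pde6b encode its catalytic subunits, which hydrolyse cyclic GMP. Pde6a (1450415_at) had intensities of 7866, 10078 and 15442 in WT and of 3046, 10735 and 7089 in Trim9 KO. Trim9 KO replicate 1 was the lowest of the 6 arrays, and KO replicate 2 lay between the WT arrays. On the log2 scale WT averaged 13.39 ± 0.49 and Trim9 KO 12.59 ± 0.92, a change of -0.80 (SE 0.96, 95% interval -2.90 to 1.30, exact permutation p = 0.3). The change of Pde6a kept its sign under all 16 alternatives, with values of -0.29 without Trim9 KO replicate 1 and -0.53 without WT replicate 3.

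Pde6b (1419740_at) gave 20431, 140846 and 110741 in WT and 131476, 72994 and 10544 in Trim9 KO. The arrays fell apart within both genotypes: WT replicate 1 and Trim9 KO replicate 3 were low, and WT replicates 2 and 3 and Trim9 KO replicate 1 were high. The log2 value was 16.06 ± 1.52 in WT and 15.51 ± 1.90 in Trim9 KO, a change of -0.55 (SE 1.22, 95% interval -3.23 to 2.13, exact permutation p = 0.6). Without Trim9 KO replicate 3 the change was 0.52.

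Pde6g encodes the inhibitory subunit, which holds the enzyme silent in the dark. Its brightest probe set (1425100_a_at) gave 5777, 73957 and 111559 in WT and 59676, 14196 and 7451 in Trim9 KO. WT replicate 1 was the lowest of all 6 arrays and WT replicate 3 the highest, so the WT arrays alone spanned 19.3-fold. On the log2 scale WT averaged 15.15 ± 2.31 and Trim9 KO 14.18 ± 1.54, a change of -0.97 (SE 1.30, 95% interval -3.84 to 1.89, exact permutation p = 0.7). With 1 array left out, it ran from -2.30 (without WT replicate 1) to -0.16 (without WT replicate 3). The second Pde6g probe set (1450453_a_at) read 926.3, 8711 and 92434 in WT and 4696, 2290 and 675.5 in Trim9 KO, a change of -2.22 (SE 1.52, 95% interval -5.56 to 1.12, exact permutation p = 0.4). The 2 probe sets followed each other over the arrays (r = 0.90), and this one had the largest change and the lowest unadjusted p of the 15 (limma, p = 0.172, adjusted p = 0.999), with WT replicate 3 far above the other arrays.

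**Figure D2:**
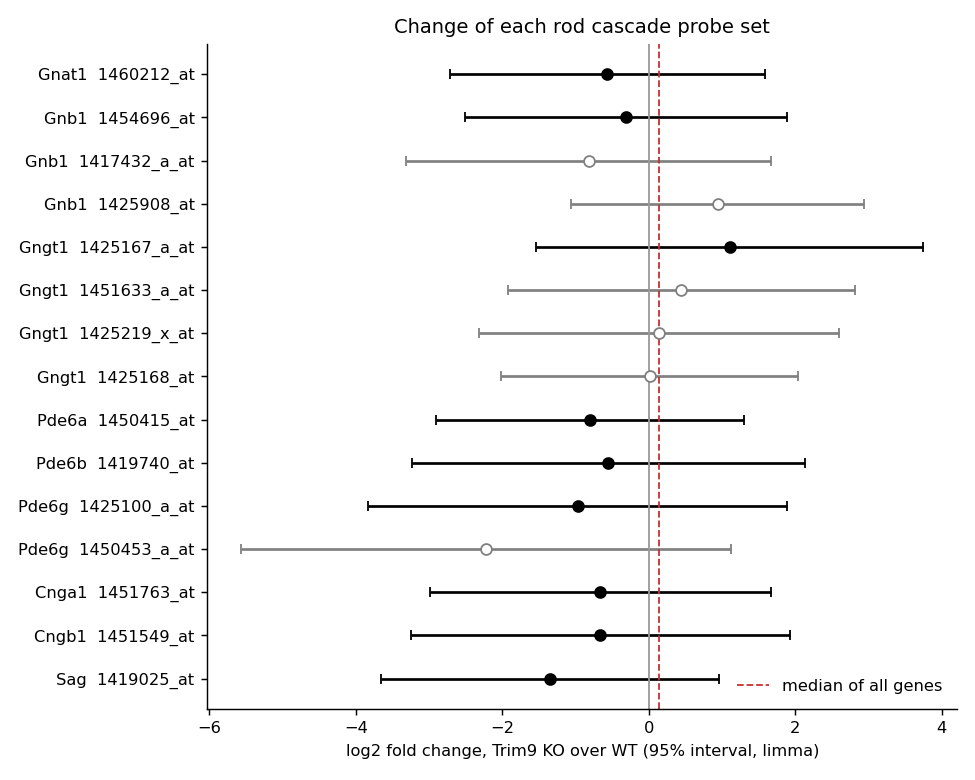
Log2 change in Trim9 KO against WT (x axis) of the 15 rod cascade probe sets (y axis), with limma's 95% interval; filled points are the brightest probe set of a gene, open points the others, and the dashed line is the median of all genes (0.14). Of the 15, 10 lie below 0 and 5 above, and every interval crosses 0.

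The cyclic nucleotide gated channel, which carries the dark current, was read by 1 probe set for each subunit. Cnga1 forms the pore, and its probe set (1451763_at) gave 14811, 73948 and 35151 in WT and 56972, 12902 and 13215 in Trim9 KO. The high arrays were WT replicates 2 and 3 and Trim9 KO replicate 1, and the genotypes overlapped. The log2 value was 15.04 ± 1.16 in WT and 14.38 ± 1.23 in Trim9 KO, a change of -0.66 (SE 1.06, 95% interval -2.99 to 1.67, exact permutation p = 0.5). With 1 array left out, it ran from -1.37 (without Trim9 KO replicate 1) to -0.10 (without WT replicate 2).

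Cngb1, the modulatory subunit that targets the channel to the outer segment, read 1926, 1838 and 16205 in WT and 6066, 2619 and 910.0 in Trim9 KO (1451549_at). WT replicate 3 was the highest array and Trim9 KO replicate 3 the lowest, and the other WT arrays lay between the KO arrays. On the log2 scale WT averaged 11.92 ± 1.79 and Trim9 KO 11.26 ± 1.36, a change of -0.66 (SE 1.18, 95% interval -3.24 to 1.93, exact permutation p = 0.7). Leaving out WT replicate 3 gave 0.37 and leaving out Trim9 KO replicate 3 gave 0.045, so either array decided its sign.

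Sag, the rod arrestin that quenches the activated pigment, had the most even WT arrays of the 9 genes. Its probe set (1419025_at) read 127718, 116829 and 121618 in WT and 118116, 13419 and 68684 in Trim9 KO. The WT arrays spanned 1.09-fold and the KO arrays 8.79-fold. Trim9 KO replicate 2 was the lowest array, replicate 3 was also lower than each WT array, and KO replicate 1 lay inside the WT range. The log2 value was 16.90 ± 0.064 in WT and 15.54 ± 1.63 in Trim9 KO, a change of -1.35 (SE 1.05, 95% interval -3.66 to 0.95, exact permutation p = 0.2). This was the largest change among the brightest probe sets, and it stayed below 0 under all 16 alternatives, from -2.40 to -0.44. Leaving out Trim9 KO replicate 2 gave -0.44, and leaving out Trim9 KO replicate 1 gave -2.01. The KO arrays were lower than each WT array once WT replicate 2 was left out, as in 4.51% of all genes, or once Trim9 KO replicate 1 was, as in 7.01%. The 2 low KO arrays were those with the highest Actb 3' to 5' difference, 6.50 and 6.42. With that Actb difference as covariate the change was -0.80. By Gapdh the difference was instead highest in WT replicate 1, where Sag was highest (8.10, against 7.17 and 7.29 in Trim9 KO replicates 2 and 3). The cause of the 2 low values was not tested.

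Subunits of 1 complex were then compared within each array, where a shift of the whole array cancels. The log2 difference of Gnat1 from Gngt1 was -0.44 ± 0.86 in WT and -2.11 ± 2.23 in Trim9 KO, a change of -1.67 (exact permutation p = 0.3, adjusted over the 3 pairs tested p = 0.9). The log2 difference of Pde6a from Pde6b was -2.67 ± 1.22 in WT and -2.92 ± 2.43 in Trim9 KO, a change of -0.25 (exact permutation p = 1, adjusted p = 1). For Cnga1 and Cngb1 it was 3.12 ± 2.11 in WT and 3.12 ± 0.78 in Trim9 KO, a change of -0.0030 (exact permutation p = 1, adjusted p = 1). The change of the transducin pair was the largest and kept its sign under all 16 alternatives, but it was -0.51 without Trim9 KO replicate 1, -2.73 without Trim9 KO replicate 3 and -0.99 with the probe sets of a gene averaged, while the other pairs each turned sign under 4 of them.

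The 9 genes did not move as 1 block over the arrays. Among the 36 pairs of genes, r over the 6 arrays was above 0 in 21 and below 0 in 15, with a median of 0.052 and a range of -0.77 to 0.88. They are given as descriptions, since the 6 points of each are the same arrays with the same scaling. The closest were Pde6b and Pde6g (0.88), Pde6g and Cnga1 (0.86), Pde6b and Cnga1 (0.79) and Gnat1 and Gnb1 (0.76). Subunits of 1 complex were not always alike, since r was 0.42 for Cnga1 and Cngb1 and 0.045 for Pde6a and Pde6b. The most opposed were Gnat1 and Pde6g (-0.77) and Gngt1 and Pde6a (-0.77).

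Part of this pattern ran with the Actb control. Pde6b, Pde6g and Cnga1 had their 3 highest arrays in WT replicates 2 and 3 and Trim9 KO replicate 1, the 3 arrays with the lowest Actb 3' to 5' difference, as did 10.3% of all genes. Their mean was higher on those 3 arrays than on the other 3 by 2.34, 3.22 and 1.96 on the log2 scale. Gnat1 had the opposite order, with its 3 lowest values on those arrays (11.9% of all genes) and a difference of -1.08. The heatmap of deviations shows both patterns, and also that no gene had its highest array in Trim9 KO replicates 2 or 3. Each KO array held the lowest value of 2 genes, and each WT array that of 1 gene.

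**Figure D3:**
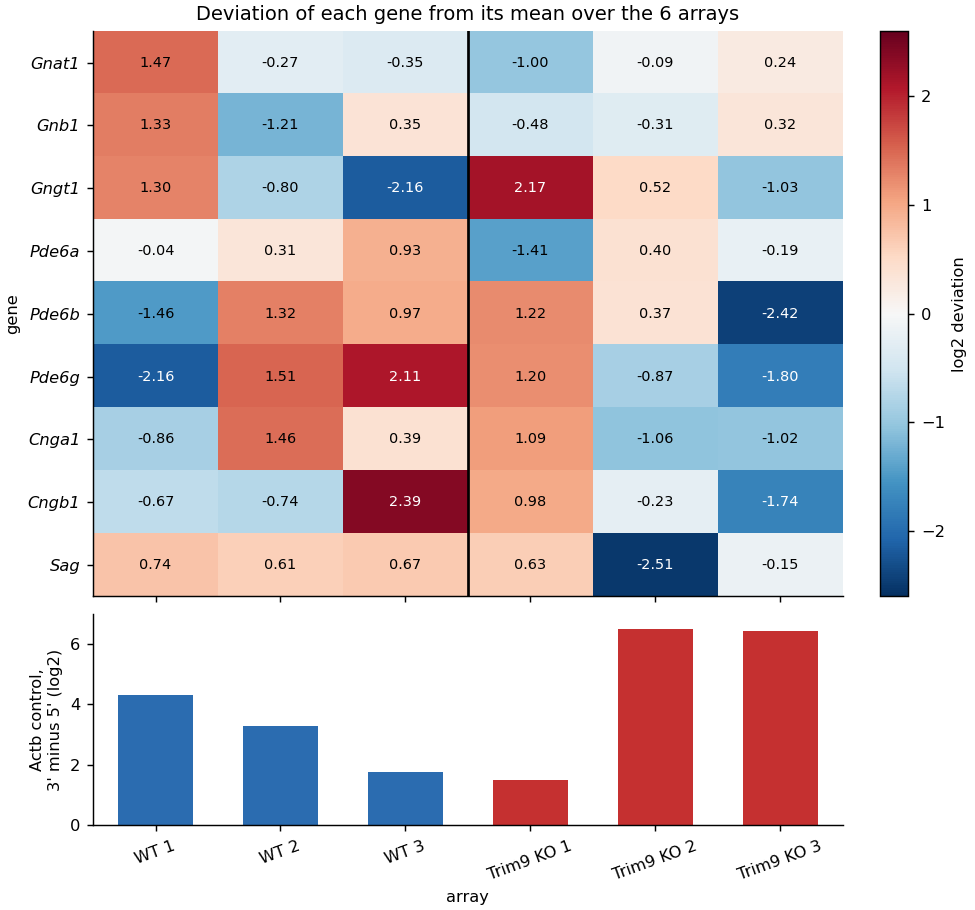
Top: deviation of each gene (rows) on each array (columns) from the gene's mean over the 6 arrays, in log2 units, red above and blue below, with WT left and Trim9 KO right of the black line. Bottom: log2 difference of the 3' and 5' Actb control probe sets on the same arrays (y axis, from 0), in which WT replicates 2 and 3 and Trim9 KO replicate 1 are lowest; Pde6b, Pde6g and Cnga1 are red on all 3 of those arrays.

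Genotypes were also compared within sets of 3 arrays ranked by Actb difference, a choice made after the data were seen. The sets were not matched in this difference. It was 3.28 and 1.78 in WT replicates 2 and 3 against 1.49 in Trim9 KO replicate 1. In the other set it was 4.30 in WT replicate 1 against 6.50 and 6.42 in Trim9 KO replicates 2 and 3. Among the 3 arrays with the lowest difference (WT replicates 2 and 3 against Trim9 KO replicate 1), the change was 0.07 for Pde6b, -0.61 for Pde6g, 0.16 for Cnga1, 0.15 for Cngb1 and -0.01 for Sag. Among the 3 with the highest (WT replicate 1 against Trim9 KO replicates 2 and 3), it was 0.44, 0.83, -0.18, -0.31 and -2.07 for the same genes. Gnat1 was lower in both sets (-0.69 and -1.39), as was Gnb1 (-0.05 and -1.33). Gngt1 was higher in the first (3.64) and lower in the second (-1.55), and Pde6a lower (-2.03) and then higher (0.15). The change had the same sign in both sets in 4 of 9 genes, and each set holds a genotype with 1 array, so these are values with no test.

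Cones use a parallel set of proteins, and 7 of 8 cone counterparts were measured, all but Cnga3. Their median change was -0.18, with 4 lower and 3 higher, and none was called. For transducin, Gnat2 changed by -0.18 (SE 0.91) where Gnat1 changed by -0.57, Gnb3 by -1.59 (SE 1.16) where Gnb1 changed by -0.31, and Gngt2 by -0.86 (SE 1.01) where Gngt1 changed by 1.11. The cone phosphodiesterase subunits Pde6c and Pde6h changed by 0.03 (SE 1.15) and 0.22 (SE 1.02), whereas the 3 rod subunits were all lower. The channel subunit Cngb3 changed by 0.27 (SE 0.93), and the cone arrestin gene Arr3 by -0.70 (SE 1.11) where Sag changed by -1.35. In the plot of rod genes beside their cone counterparts the SE bars overlap in every pair, and the difference between rod and cone genes was not tested.

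**Figure D4:**
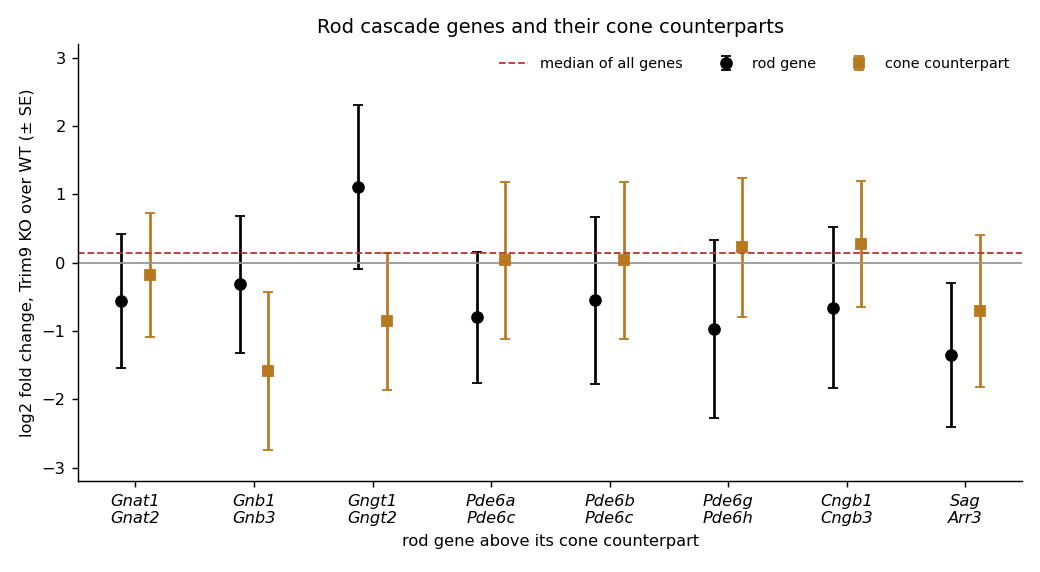
Log2 change in Trim9 KO against WT (y axis, ± SE from limma) of rod cascade genes (black circles) beside their cone counterparts (brown squares). Pairs run along the x axis, Pde6c stands beside both Pde6a and Pde6b, and the median of all genes is dashed (0.14). Cnga1 is not shown because its counterpart Cnga3 was not measured. Gngt1 is the only rod gene above 0, and Gnb3 has the lowest cone value (-1.59).

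Other genes that serve the cascade were counted from lists. Of 11 genes of shutoff and calcium feedback, 10 were measured (Gucy2f was not), 5 were lower and 5 higher, with a median of 0.02 and none called. The 3 with the largest limma statistic were Rgs9bp, the membrane anchor of the complex that turns transducin off (-1.49, SE 1.03), Gnb5, a subunit of the same complex (-1.34, SE 1.02), and the guanylate cyclase gene Gucy2e (1.48, SE 1.39), whose signal was above the median on 2 of 6 arrays. Of 7 genes of assembly and transport, 5 were lower and 2 higher, with a median of -0.70 and none called. In this list Unc119, which carries the transducin alpha subunit, changed by -1.67 (SE 1.40), Pde6d, which carries prenylated subunits of the phosphodiesterase, by -1.05 (SE 0.96), and Tulp1, which takes part in transport to the outer segment, by -1.49 (SE 1.64). The transcription factor genes Crx (-0.35, SE 1.03) and Nrl (-0.22, SE 0.92), 2 of 3 listed, both had a lower mean and did not pass the test. In these lists and in the cone list, limma gave 0 genes with an unadjusted p under 0.05 as well.

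Rod markers other than the cascade were also read. Of 5 listed, 4 were measured, and Nrl, Rom1 and Rp1 were above the array median on all 6 arrays. Prph2, a structural protein of the outer segment discs, was above it on 4 of 6 arrays, with intensities of 18.54, 63712 and 2885 in WT and of 73616, 4031 and 32.34 in Trim9 KO. Of the 4, 3 had a lower mean in Trim9 KO, and their summed intensity was 259429 to 362408 in WT and 121678 to 325604 in Trim9 KO. Of the 5 pigment epithelium markers (Rpe65, Ttr, Rgr, Best1 and Lrat), all 5 had a higher mean in Trim9 KO, with a median of 1.33, although none was called. Their summed intensity was 76195 to 493315 in WT and 448765 to 1368274 in Trim9 KO. Most of each sum was Ttr, with 67384 to 468976 in WT and 313314 to 1353350 in Trim9 KO. Rpe65, Rgr and Lrat were highest in Trim9 KO replicate 3 (9968, 76256 and 49193). Best1 was above the array median on 1 of 6 arrays. Of the 5 Müller glia markers 4 were lower, with sums of 132334 to 413631 in WT and 108845 to 229930 in Trim9 KO. The 5 lens markers summed to 294 to 1774 in WT and 511 to 5633 in Trim9 KO, with 4 higher and none above the median on all arrays. Of the other markers, those with a lower mean were 3 of 3 for horizontal cells (median -0.99), 4 of 5 for cones (-0.70), 3 of 4 for amacrine cells (-0.48), 2 of 3 for bipolar cells (-0.24), 1 of 5 for ganglion cells (0.21) and 0 of 3 for blood (0.87). Only 1 of 3 horizontal cell genes and 0 of 3 blood genes were above the array median on all 6 arrays. For cones, amacrine, bipolar and ganglion cells this held for 4 of 5, 3 of 4, 2 of 3 and 5 of 5. In Pou4f1 of the ganglion list (1.73, SE 0.98) and Tfap2a of the amacrine list (0.27, SE 0.89) every KO array was above every WT array. The same held for 5.35% of all genes. No marker was at 0, and the part of other tissue in the values of the rod genes was not tested.

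The genes whose pattern over the 6 arrays was most like the mean of the 9 rod genes were sought among 12047 genes whose mean over the 6 arrays was above the median of all probe sets, a filter that does not hold on each array. The mean log2 value of the 9 genes was 15.40, 15.69 and 16.03 in WT and 15.93, 15.03 and 14.58 in Trim9 KO, highest in WT replicate 3 and lowest in KO replicate 3. The closest were Nudt3 (r = 0.995), Max (0.993) and Slc22a17 (0.982), each over 6 arrays. Nudt3 had log2 values of 9.99, 10.72 and 12.68 in WT and of 11.72, 8.22 and 6.37 in Trim9 KO, which is the same order of arrays. These values are a description of 6 arrays.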

How the data were processed

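Retinal RNA of 3 WT and 3 Trim9 KO samples was read on 6 arrays of 45101 probe sets. The authors deposited intensities on a linear scale, and the trimmed mean of each array (2% of probe sets left out at each end) was 1500. The submitters' processing notes name MAS5 and no version. RMA is given in the paper's methods, and its values would be on a log2 scale. The scanner files were not used here. Every array column had its sample (0 did not), and 0 pairs of arrays were identical.

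Intensities were taken as log2(intensity + 16). Without 64 control probe sets, 45037 were compared in R 4.3.3 by lmFit and eBayes of limma 3.58.1, unfiltered and unblocked, with Benjamini-Hochberg adjustment over all of them (threshold 0.05). Intervals are 95% intervals of limma. Exact permutation tests were two-sided. Symbols came from the platform annotation, and 9 of 9 genes matched RefSeq. Named were the 9 genes, Trim9, the cone counterparts, up to 3 genes per other list by limma statistic, and the 3 genes most like the mean of the 9. The genes and lists were chosen with earlier results of these data known. The alternatives were a pseudocount of 1 or 64, quantile normalization, equal array medians, leaving out dim probe sets, a replicate block, array weights, a trend with robust prior, averaging over the probe sets of a gene, leaving out each array, and, added after the data were seen, the Actb control as covariate and values within sets of arrays. The fit was tested on simulated data. Tables and figures were made with Python 3.11.15, pandas 2.3.3, numpy 2.4.6 and matplotlib 3.10.9. The number of arrays limits the precision.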

Additional observations from a re-analysis of the deposited data

How the results depend on the processing

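No probe set of the cascade was called under any of the 16 alternatives. Of 144 values of single genes, 134 kept their sign. The samples of both genotypes carry replicate numbers, but same-numbered samples did not deviate together (r of -0.23, -0.081 and 0.033), and with the replicate block 0 probe sets were called, 864 of all probe sets had an unadjusted p under 0.05 (1296 without it) and the median of the 9 genes stayed at -0.66. That median was -1.04 after quantile normalization and -0.98 with equal array medians, where the median of all probe sets was 0.015 and -0.14 (0.18 in the main setting), and -1.30 (without Trim9 KO replicate 1) to -0.22 (without WT replicate 3) when 1 array was left out. With the Actb control as covariate it was 0.050, 4 genes were lower, and the changes were 0.31 for Pde6b, 0.18 for Pde6g, 0.050 for Cnga1 and 0.24 for Cngb1. Quantile normalization turned Gngt1 to -0.041 and the difference of Pde6a from Pde6b to 0.50. Array weights turned that difference to 0.19 and that of Cnga1 from Cngb1 to 0.18, which was 0.00031 with a pseudocount of 1. Unadjusted p-values under 0.05 were found for 2 of 15 cascade probe sets with array weights (8.08% of all probe sets), for 1 without WT replicate 1 (4.06%) and for 0 under the other settings.

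When 1 array was left out, 6 to 8 genes were lower, and the number of genes without overlap, KO being lower, was 0 to 2 of 9, 1 without WT replicate 1 (Pde6g, 10.8% of all genes), 2 without WT replicate 2 (Gnb1 and Sag, 4.51%), 2 without Trim9 KO replicate 1 (Cnga1 and Sag, 7.01%) and 1 without Trim9 KO replicate 2 (Pde6a, 5.54%). Changes ranged from -0.88 to 0.024 for Gnat1 and from -1.001 to 0.27 for Gnb1 (both highest without WT replicate 1), from -1.42 to 0.52 for Pde6b (highest without Trim9 KO replicate 3) and from -1.31 to 0.37 for Cngb1 (highest without WT replicate 3, with 0.045 when Trim9 KO replicate 3 was left out). The difference of Pde6a from Pde6b ranged from -1.42 to 1.01 and that of Cnga1 from Cngb1 from -1.01 to 1.09. Leaving out an array shows which array decided a sign, and the cause of these turns was not tested. The number of arrays limits all values, and the brightest probe set of each of the 9 genes was above the median on all arrays. The state of the RNA or its labelling is a further limit. The ratio of 3' to 5' control intensity ran from 2.83 to 94.5 for Actb and from 0.90 to 310 for Gapdh. Its part in the spread between arrays was not tested.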
